A study of Gallus gallus with 50 samples.

Results

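The mucosa of the ileum was compared between 5 broiler chickens fed a high level of purified lysophosphatidylcholine (LPC) and 5 fed a plain diet. The 10 arrays were chosen by their labels for segment and diet, out of 50 arrays in the study, and the rule that picks them uses no measured value. All birds were male Cobb 500 broilers, a fast-growing meat strain, sampled on day 10. The LPC high feed supplied 19 g of LPC per tonne, mixed in as 1000 g per tonne of LPC on a carrier. The control feed had no supplement, and the labels do not say that it held the carrier, so LPC and carrier cannot be told apart. The study's 125 chicks were kept 25 to a pen, which leaves no more than 1 pen for each diet if each pen had 1 feed. The labels do not state how feeds were given to pens, and feed and pen cannot be told apart either. Of the 3 batches named in the labels, the LPC high birds fell 2, 1 and 2 into batches 1, 2 and 3, and the control birds 2, 2 and 1. LPC high bird 3 was the only LPC high bird of batch 2, and control bird 5 the only control bird of batch 3. With batch as a term, leaving out either bird takes its whole batch out of the comparison, so bird and batch cannot be told apart there.

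LPC is phosphatidylcholine that has lost 1 of its fatty acids, and with bile salts it helps to disperse fat in the gut. Enterocytes, the absorptive cells of the villi, take it up, and lysophosphatidylcholine acyltransferases turn it back into phosphatidylcholine, part of which coats the lipoproteins that carry fat away. The ileum is the last segment of the small intestine and the site where bile acids are recovered. A mucosal scraping holds the epithelium of villi and crypts and a varying amount of the tissue beneath it, the lamina propria, with its fibroblasts, vessels, muscle strands and immune cells. In such bulk RNA, fewer cells of a type and less RNA per cell cannot be told apart.

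Each of the 10 arrays scored on the ileum side. A score formed as the mean of 6 ileum markers minus that of 7 jejunum markers ran between 4.09 and 5.64 in LPC high birds and between 4.24 and 6.35 in control birds, against a halfway value of 1.36 between the segments. Of the other arrays of the study, 4 scored on the side of the segment they are not labelled for, and main counts and values that rest on one of them are also given without it. Arrays of a group correlated at 0.98 to 0.99 in LPC high birds and in control birds (Pearson's r across probe sets). A measure taken from the control transcripts of the array separated the groups. Whether it came from the RNA or from its labelling was not tested. An index of signal at the 5′ end minus the 3′ end of the actin, GAPDH and EF1A control transcripts averaged -0.53 ± 0.09 in LPC high birds and -0.77 ± 0.13 in control birds (log2; SD, n = 5 each). Every LPC high bird lay above every control bird (exact permutation test, two-sided p = 0.0079, the smallest that 5 against 5 can give). Its part in the gene results was not tested beyond a fit with the index as a covariate, in which 435 of 13009 genes were higher (3.34%) and 919 lower (7.06%) at an unadjusted p under 0.05.

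With 5 birds a side, no single gene passed the test. None of 38382 probe sets, which is 0%, reached an adjusted p under 0.05 (limma with batch as a term, Benjamini-Hochberg), and the smallest adjusted p was 0.0935. At an unadjusted p under 0.05 there were 5051 probe sets, or 13.2%, with 2306 higher (6.01%) and 2745 lower (7.15%) in LPC high birds. In 436 probe sets (1.14%) all 5 LPC high birds lay above all 5 control birds, and in 438 (1.14%) they lay below. Among 13009 genes, each read by its brightest probe set, 840 were higher (6.46%) and 1169 lower (8.99%) at that level. All 5 LPC high birds lay above all 5 control birds in 157 genes (1.21%) and below them in 182 (1.4%). These shares are the background for the counts below that come from this fit, and they move in other fits. With 1 bird left out, 4.21% to 6.92% of all genes were higher and 6.12% to 10.9% lower. The lowest shares were without LPC high bird 3, and 10.9% was without control bird 5. Without the batch term 5.73% were higher and 7.56% lower. A difference is LPC high minus control on the log2 scale, where 1 is a 2-fold difference, and over all genes its median was 0 to 2 decimals. Differences in the ileum are given as values that did not pass, and adjusted p-values are over all probe sets.

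Gene lists differed in size and direction. Interferon response genes lay highest, genes of the dividing crypt and of the cytosolic ribosome lay lowest, and the collagen lists, whose medians were small, held single genes with values near -2.

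**Figure D1:**
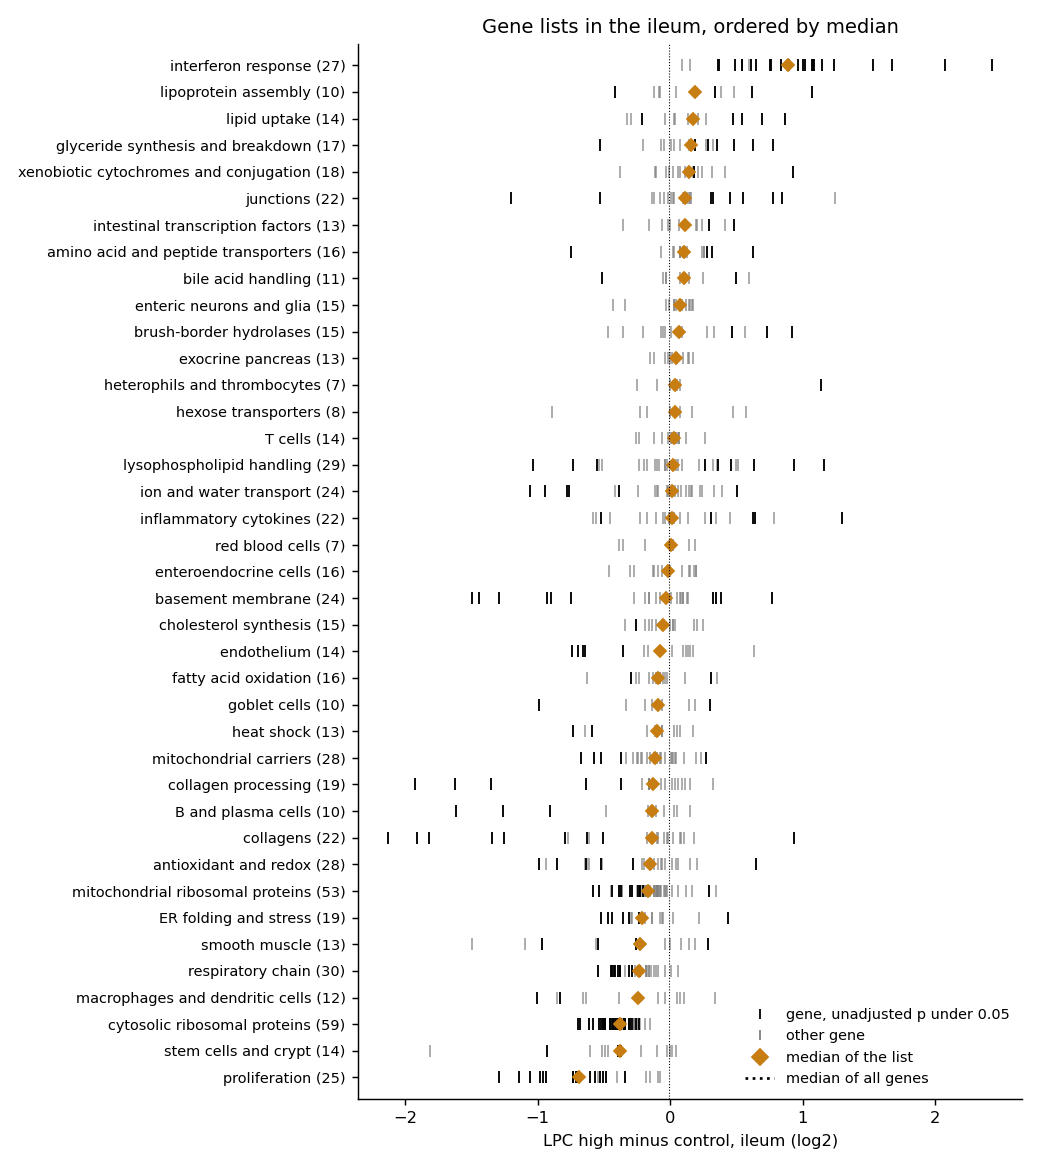
Differences of single genes between LPC high and control birds in the ileum (log2, horizontal axis), for gene lists ordered by their median, with the number of measured genes in brackets. Dark ticks are genes with an unadjusted p under 0.05, grey ticks the other genes, diamonds the list medians and the dotted line the median of all genes. The interferon list has the highest median (0.89) and the proliferation list the lowest (-0.69).

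Collagens of the connective tissue were lower in the ileum of LPC high birds. COL1A1, which encodes a chain of type I collagen, the main fibre of connective tissue, had 6.33, 6.94, 5.24, 6.12 and 6.73 in LPC high birds, against 8.85, 8.35, 7.88, 7.70 and 7.30 in control birds (log2 signal). COL3A1, of the finer type III fibres, had 6.80, 8.17, 6.67, 7.82 and 8.22 in LPC high birds and 10.35, 9.90, 9.76, 8.86 and 8.86 in control birds. COL6A1, of the microfibrils that surround such fibres, had 4.88, 5.31, 4.70, 5.5 and 5.71 in LPC high birds and 8.22, 6.94, 6.90, 6.43 and 6.59 in control birds. In each of these genes the groups did not overlap, and control bird 1 was the highest of the 10. The differences were -1.82 ± 0.27 for COL1A1, -2.13 ± 0.38 for COL3A1 and -1.91 ± 0.30 for COL6A1 (SE), with adjusted p = 0.0935, 0.108 and 0.0935. All 3 were negative in each batch, at -1.97, -2.55 and -0.88 for COL1A1 in batches 1, 2 and 3.

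Proteins that fold, bind or bridge collagen followed the same order. SERPINH1, the chaperone of newly made procollagen, had 3.60, 4.55, 3.87, 4.53 and 4.22 in LPC high birds, against 7.44, 6.02, 5.57, 5.48 and 5.47 in control birds, a difference of -1.92 ± 0.34 (adjusted p = 0.11). SPARC, a collagen-binding matrix glycoprotein, had 5.46, 5.52, 5.08, 5.41 and 5.44 in LPC high birds and 7.47, 6.90, 6.73, 6.53 and 6.37 in control birds, a difference of -1.44 ± 0.15 (adjusted p = 0.0935). The groups did not overlap in either gene. SPARC passed with a trended robust prior (adjusted p = 0.049), without control bird 1 (0.0309) and without control bird 5 (0.0313). DCN, the proteoglycan decorin that coats collagen fibres, had 5.13, 6.21, 5.02, 5.74 and 6.30 in LPC high birds and 8.56, 7.35, 7.68, 6.48 and 6.22 in control birds, a difference of -1.62 ± 0.43 (adjusted p = 0.179). Control bird 5 overlapped the LPC high birds there. LUM, the related proteoglycan lumican, was lower, at -1.35 ± 0.44, as was CRTAP, a subunit of the complex that hydroxylates procollagen, at -0.64 ± 0.23.

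**Figure D2:**
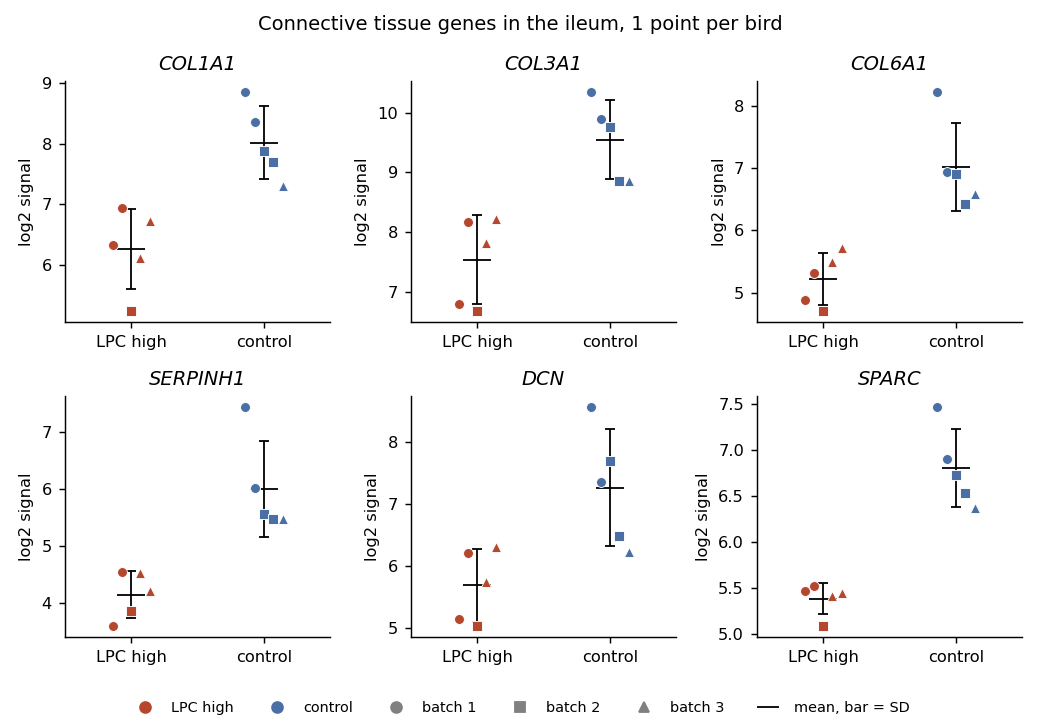
Log2 signal of 6 connective tissue genes in the ileum, 1 point per bird, LPC high birds left and control birds right, with the mean and SD of each group and the batch as the shape of the point. The groups do not overlap in COL1A1, COL3A1, COL6A1, SERPINH1 and SPARC, while control bird 5 lies among the LPC high birds in DCN.

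Not all collagens shared in this. Of 22 measured genes of the collagen list, 16 were lower and 6 higher, 8 lower (36.4%) and 1 higher (4.55%) at an unadjusted p under 0.05, and 4 lay below all control birds in every LPC high bird. The list median was -0.14. COL6A3, also of type VI collagen, was at -1.25 ± 0.27 and was the other named member whose groups did not overlap. COL5A1, a chain that helps set fibre width, was at -1.34 ± 0.36 by its brightest probe set and at -1.58 ± 0.22 by another, and the third gave -0.14. Of 19 collagen processing genes, 5 were lower (26.3%) and none higher at that level, with a median of -0.13. Without control bird 1 the counts were 7 lower collagens and 4 lower processing genes, with medians of -0.10 and -0.12. Leaving out each bird in turn gave 7 to 9 lower collagens, with medians of -0.06 without LPC high bird 1 and -0.27 without LPC high bird 3, and 3 to 5 lower processing genes.

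The basement membrane, the sheet under the epithelium and around vessels, had genes in both directions. COL4A2, a type IV collagen chain of that sheet, was lower, at -1.49 ± 0.32 (adjusted p = 0.134). LAMB3 and LAMA3, chains of the laminin that epithelial cells lay down, were higher. LAMB3 had 7.64, 7.71, 7.86, 7.87 and 7.21 in LPC high birds and 7.08, 6.37, 7.10, 6.95 and 7.10 in control birds, with no overlap, a difference of 0.77 ± 0.18. LAMA3 differed by 0.39 ± 0.10, again with no overlap. Of 24 genes 6 were lower (25%) and 4 higher (16.7%) at an unadjusted p under 0.05, and the median was -0.03. The other 5 probe sets of COL4A2 were also negative, between -0.65 and -0.13.

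Markers of the other cells of the lamina propria and muscle were measured beside these genes. Positive differences were found in 7 of 14 endothelial, 5 of 13 smooth muscle and 4 of 12 macrophage and dendritic cell markers. For endothelium, 5 of 14 markers were lower (35.7%) and none higher at an unadjusted p under 0.05, with a median of -0.07. CDH5, the junction cadherin of endothelial cells, had a difference of -0.70 ± 0.14 and TEK, their angiopoietin receptor, -0.64 ± 0.14, both below all control birds in all 5 LPC high birds. For smooth muscle, 3 of 13 were lower and 1 higher, with a median of -0.23 (MYL9, a myosin light chain, -0.54 ± 0.16, and CALD1, caldesmon, -0.97 ± 0.32). For macrophages and dendritic cells, 2 of 12 were lower and none higher, with a median of -0.24. The macrophage and smooth muscle counts moved with single birds. For macrophages the count was 6 without control bird 2, 4 without control bird 5 and 0 without LPC high bird 2, and the median -0.08 without control bird 1. For smooth muscle it was 1 without LPC high bird 3 and 6 without control bird 5. The fit with the index gave a macrophage median of -0.68 with 2 lower, while 6 smooth muscle markers were lower and the endothelial median turned to 0.07 with 2 lower. CSF1R, the receptor on which macrophages depend, was at -1.01 ± 0.35 and LY86, a partner of a receptor for bacterial lipopolysaccharide, at -0.83 ± 0.32. The mean level of the collagen list was 5.38 to 5.70 in LPC high birds and 5.75 to 6.50 in control birds. The smooth muscle list lay at 5.28 to 5.81 in LPC high birds and 5.31 to 6.47 in control birds, and the endothelium list at 4.70 to 5.08 in LPC high birds and 4.94 to 5.18 in control birds. The macrophage list lay at 5.97 to 6.39 in LPC high birds and 6.16 to 7.23 in control birds. Control bird 1 was the highest of the 10 birds in all 4 lists. Values on this array have no true 0, so no marker could be called absent, and the part of these cells in the collagen result was not tested. With the index as a covariate the collagen differences were larger in size, at -2.36 for COL1A1 and -3.14 for COL3A1.

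The same birds gave a jejunum array each, which allows the ileum and the jejunum to be compared within a bird. The array labelled jejunum control replicate 2 scored 5.49 on the segment score, on the ileum side, and the test without that bird follows. COL3A1 had 9.41, 9.87, 11.13, 10.12 and 10.44 in the jejunum of LPC high birds and 9.07, 8.57, 9.09, 9.43 and 8.17 in that of control birds. All but 1 of the LPC high birds lay above all control birds there, the reverse of the ileum. The jejunum difference was 1.49 ± 0.24, and the ileum difference minus the jejunum difference was -3.61 ± 0.30 (limma on the ileum minus jejunum values of 10 birds, adjusted p = 0.0012). For COL6A1 the ileum minus jejunum value was -3.38 ± 0.26 (adjusted p = 0.0012), for COL1A1 -2.87 ± 0.40 (0.0163), for SERPINH1 -2.84 ± 0.25 (0.0015) and for SPARC -2.68 ± 0.36 (0.0131). In each of these genes the ileum difference was negative and the jejunum difference positive.

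In all, 186 of 38382 probe sets passed this test of the difference between segments, or 0.485%, with 18 positive and 168 negative. Of the 186, 161 had a negative value in the ileum and a positive value in the jejunum, and 17 the opposite. Among genes 92 passed (0.707%). They included 8 of 22 collagens, 4 of 19 collagen processing genes, 4 of 24 basement membrane genes, 5 of 12 macrophage markers, 2 of 13 smooth muscle markers and 2 of 14 endothelial markers. Without control bird 2 these counts were 6 collagens, 4 processing genes, 4 basement membrane genes, 6 macrophage markers, 1 smooth muscle marker and 1 endothelial marker. None of 25 proliferation genes, 27 interferon response genes and 59 cytosolic ribosomal protein genes passed. At an unadjusted p under 0.05, the ileum minus jejunum value was negative in 17 of the 25 proliferation genes and 24 of the 59 ribosomal protein genes and positive in none, against 11.4% negative and 5.96% positive over all genes. CDH5 was at -1.78 ± 0.14 (adjusted p = 0.0012), LY86 at -1.96 ± 0.22 (0.0046), CSF1R at -1.97 ± 0.29 (0.019) and C1QB, a chain of the complement protein C1q made by macrophages, at -2.27 ± 0.42 (0.0495). JCHAIN, the chain that joins antibodies for secretion into the gut, was at -3.38 ± 0.52 (0.0235). DCN was at -3.06 ± 0.29 (0.0018) and CRTAP at -1.42 ± 0.13 (0.0016).

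This difference depended on the model. No probe set passed without the batch term (smallest adjusted p = 0.0843), with batch as a random block (0.0671) or with the index as a covariate (0.0594). Without control bird 2, 145 probe sets passed (0.378%), 10 positive and 135 negative, of which 115 were among the 186, and 78 genes passed (0.6%). At an unadjusted p under 0.05, 17 of 25 proliferation genes and 18 of 59 ribosomal protein genes were then negative, against 10.5% negative and 5.38% positive over all genes. COL3A1 was then at -3.63 (adjusted p = 0.0055) and COL1A1 at -3.20 (0.0108). The count was 44 without control bird 1, 48 without LPC high bird 3, 91 to 97 without LPC high bird 1, 2 or 5 or control bird 4, and 381 without control bird 5. Leaving out LPC high bird 3 or control bird 5 also took batch 2 or batch 3 out of the comparison. COL3A1 and COL6A1 passed without any 1 of the 10 birds, and COL1A1 in 9 of the 10 cases.

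**Figure D3:**
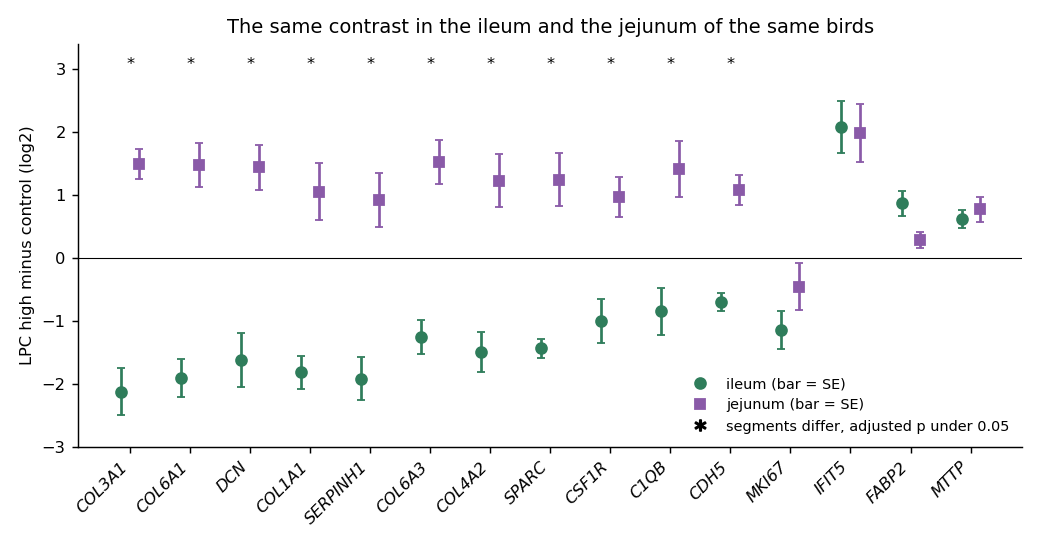
LPC high minus control in the ileum (circles) and in the jejunum (squares) of the same birds, for 15 genes (log2, vertical axis, bars are SE). Stars mark genes whose 2 differences were themselves different at an adjusted p under 0.05 (limma with batch as a term). The connective tissue, macrophage and endothelial genes shown lie below 0 in the ileum and above 0 in the jejunum, while IFIT5 lies near 2 in both.

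Cell division genes were lower in the ileum of LPC high birds in every measured member of their list. MKI67, which marks cells in the division cycle, had 6.44, 6.18, 6.16, 6.52 and 5.92 in LPC high birds and 7.10, 8.67, 7.24, 7.36 and 6.72 in control birds, a difference of -1.14 ± 0.30 (adjusted p = 0.172). CENPF, a kinetochore protein, had 4.23, 4.01, 3.82, 3.84 and 3.99 in LPC high birds and 4.88, 5.81, 4.69, 4.68 and 4.57 in control birds, a difference of -0.96 ± 0.18 (adjusted p = 0.122). TOP2A, the topoisomerase that untangles chromosomes, was lower, at -0.69 ± 0.19. The groups did not overlap in these 3 genes, and control bird 2 was the highest bird in each. CDC20, which starts the separation of chromosomes, was at -0.98 ± 0.28 with overlap. All 25 measured proliferation genes were negative, 17 of them (68%) at an unadjusted p under 0.05, and 6 lay below all control birds in every LPC high bird. The list median was -0.69, and -1.03, -0.52 and -0.20 within batches 1, 2 and 3.

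Genes of the crypt, where the epithelium is renewed, had lower values too. EPHB2, a receptor that keeps dividing cells in the crypt, had 4.85, 4.72, 4.35, 4.71 and 4.49 in LPC high birds and 5.37, 6.82, 5.08, 4.95 and 5.22 in control birds, with no overlap and a difference of -0.93 ± 0.25 (adjusted p = 0.192). SOX9, a transcription factor of crypt cells, differed by -0.37 ± 0.12 and BMI1, a chromatin protein of self-renewing cells, by -0.39 ± 0.10. Of 14 stem cell and crypt genes 12 were negative, 3 (21.4%) at an unadjusted p under 0.05, with a median of -0.38. By the mean level of the proliferation list, LPC high birds lay at 5.23 to 5.38 and control birds at 5.48 to 6.84 with no overlap, and control bird 2 was highest at 6.84 with the other control birds at 5.48 to 5.82. The count of 17 was 9 without LPC high bird 1, 10 without LPC high bird 2 and 21 without control bird 1. In the fit with the index the proliferation median was -1.10 with 16 of 25 lower and 1 higher. Without control bird 2 it was -0.36 with 13 of 25 lower, and the crypt median -0.26 with 3 of 14, while 7 crypt genes were lower without control bird 1. In the jejunum of the same birds the proliferation median was -0.16, and 0.09 without control bird 2.

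Genes of protein synthesis were lower by smaller amounts. All 59 measured cytosolic ribosomal protein genes had negative differences, 38 of them (64.4%) at an unadjusted p under 0.05, with a median of -0.38. RPL30, of the large subunit, had 11.66, 11.29, 10.88, 11.60 and 11.58 in LPC high birds and 11.94, 12.37, 11.78, 11.88 and 11.76 in control birds, a difference of -0.61 ± 0.15. RPS28, of the small subunit, was lower, at -0.68 ± 0.16, and in both genes the groups did not overlap. The list was lowest in LPC high bird 3 (mean level 10.63, others 11.07 to 11.35) and highest in control bird 2 (11.81, others 11.20 to 11.42). Without LPC high bird 3 the count was 8 of 59 and the median -0.25, without control bird 2 it was 19 of 59 and -0.28, without LPC high bird 2 it was 23 of 59, and without control bird 5 it was 52 of 59 and -0.49. In the fit with the index 20 of 59 were lower, with a median of -0.52, and without the batch term 17 of 59. Within batches 1, 2 and 3 the median was -0.34, -0.68 and -0.09. Mitochondrial ribosomal protein genes had a median of -0.17 (11 of 53 lower, 1 higher) and respiratory chain genes a median of -0.23 (12 of 30 lower, none higher). The respiratory chain count was 5 without LPC high bird 2 or 3 or control bird 2, 6 without control bird 4 and 19 without control bird 5. With the index as a covariate it was 2, with a median of -0.36. Genes of folding in the endoplasmic reticulum had a median of -0.22, with 6 of 19 lower and 1 higher.

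Interferon response genes were higher throughout. IFIT5, which binds viral RNA, had 9.08, 9.77, 12.23, 9.55 and 10.63 in LPC high birds and 9.02, 7.20, 9.04, 9.39 and 7.82 in control birds, a difference of 2.07 ± 0.41 (adjusted p = 0.122). The groups overlapped, since LPC high bird 1 lay below control bird 4. PARP14, an ADP-ribosyltransferase induced by interferon, had 10.33, 10.66, 11.37, 10.52 and 10.96 in LPC high birds and 10.19, 9.80, 10.31, 10.20 and 9.93 in control birds. That is a difference of 0.76 ± 0.15 with no overlap (adjusted p = 0.122). EIF2AK2, the kinase PKR that halts translation on viral RNA, was higher by 1.09 ± 0.26 and PARP9, a partner of antiviral signalling, by 1.00 ± 0.23. TLR3, the receptor for double-stranded RNA, was higher by 0.89 ± 0.24, and ZC3HAV1, which directs decay of viral RNA, by 0.89 ± 0.22 (1.02 ± 0.14 by its lowest-p probe set). All 27 measured interferon genes were positive, 24 of them (88.9%) at an unadjusted p under 0.05, with a median of 0.89.

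The interferon values differed widely between birds. LPC high bird 3 had the highest mean level of the list at 10.17, the other LPC high birds had 8.36 to 9.00, and control birds had 7.76 to 8.53. Without LPC high bird 3, and so without the contrast in batch 2, the median was 0.61 with 13 of 27 higher at that level. The list median was 0.30 in batch 1, 1.56 in batch 2 and 0.88 in batch 3, and without the batch term 12 of 27 were higher. With the index as a covariate 26 of 27 were positive and 10 higher at that level, with a median of 0.94. In the jejunum of the same birds the list median was 0.94, with 26 of 27 positive, and 0.82 with 25 positive without control bird 2. For IFIT5 the ileum minus jejunum difference was 0.10 ± 0.21 (adjusted p = 0.873), and 0.29 without control bird 2 (0.515).

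**Figure D4:**
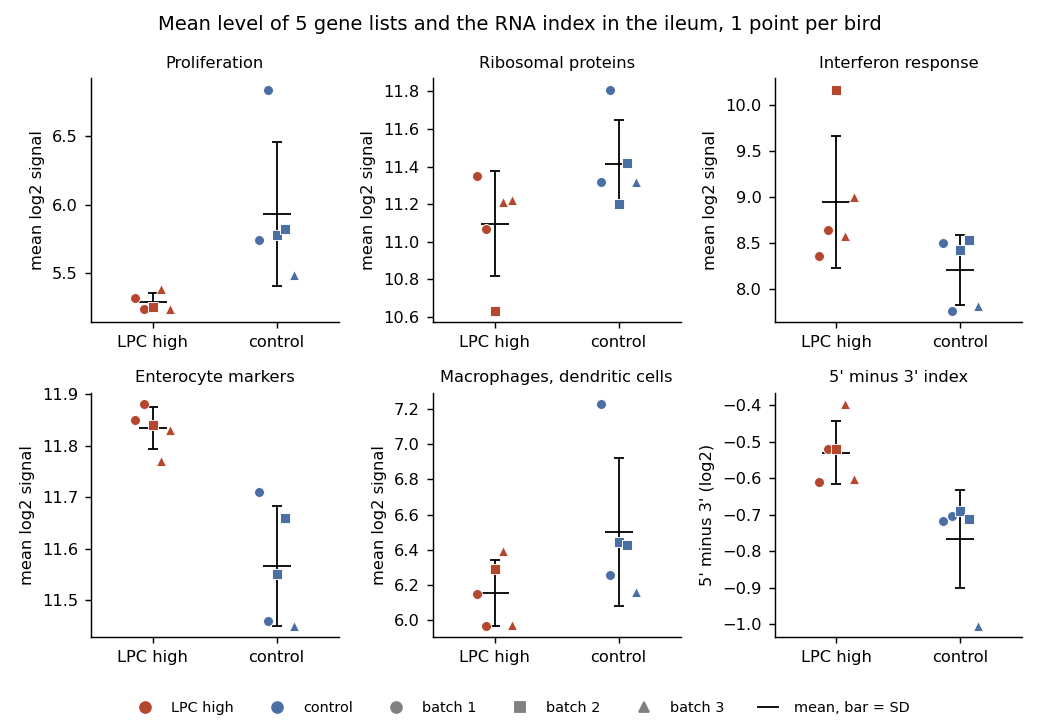
Mean log2 signal of 5 gene lists and the 5′ minus 3′ index in the ileum, 1 point per bird, LPC high birds left and control birds right, with mean and SD, and the batch as the shape of the point. LPC high bird 3 stands highest in the interferon list (10.17), control bird 2 in the proliferation list (6.84), control bird 1 in the macrophage list (7.23), and control bird 5 lowest in the index (-1.01).

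Markers of absorptive cells were slightly higher. The mean level of 10 enterocyte markers was 11.77 to 11.88 in LPC high birds and 11.45 to 11.71 in control birds, with no overlap. Of the 10, 9 were positive and 4 (40%) were higher at an unadjusted p under 0.05, with a median of 0.21. The 4 were HNF4A, CDX2, FABP2 and MTTP, and no other member reached that level. FABP2, MTTP and a further member, APOB, are given again below with fat absorption, so the 2 results share genes. HNF4A, a transcription factor of the mature enterocyte, differed by 0.48 ± 0.10, and CDX2, which sets intestinal identity, by 0.30 ± 0.08. CDX2 had 11.58, 11.54, 11.56, 11.67 and 11.63 in LPC high birds and 11.40, 11.22, 11.33, 11.36 and 11.20 in control birds, which did not overlap. With the index as a covariate the marker median was 0.16, with 1 of 10 higher.

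Genes of fat absorption had mostly positive differences. FABP2, the intestinal fatty acid binding protein, had 11.11, 11.23, 11.36, 10.43 and 11.02 in LPC high birds and 10.97, 10.30, 10.02, 10.63 and 9.52 in control birds, a difference of 0.87 ± 0.20 (adjusted p = 0.152). MTTP, which loads lipid onto apolipoprotein B, had 11.24, 11.48, 11.50, 11.07 and 11.46 in LPC high birds and 11.00, 10.33, 10.98, 11.16 and 10.57 in control birds, a difference of 0.62 ± 0.15 (adjusted p = 0.159). A few birds overlapped in each gene. DGAT2, of the last step of triglyceride synthesis, was higher by 0.78 ± 0.20, MOGAT2, the monoacylglycerol acyltransferase of the enterocyte, by 0.48 ± 0.14, and GPAT3, a glycerol phosphate acyltransferase, by 0.63 ± 0.24. APOA4, a lipoprotein component made on fat feeding, was at 1.07 ± 0.48 and APOB itself at 0.39 ± 0.18, while its other 6 probe sets ran between -0.37 and 1.15.

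By list, lipid uptake had a median of 0.17 (4 of 14 higher, 1 lower), lipoprotein assembly 0.19 (3 of 10 higher, 1 lower) and glyceride synthesis and breakdown 0.16 (6 of 17 higher, 1 lower), counting an unadjusted p under 0.05. These are 28.6%, 30% and 35.3% higher, against 6.46% of all genes. With the index as a covariate the counts were 0, 1 and 2 higher and the medians 0.04, 0.08 and 0.17. FABP2 then stood at 0.81, MTTP at 0.69 and MOGAT2 at 0.09. Control bird 2 was the lowest control bird in lipoprotein assembly and lipid uptake. Without it lipid uptake had 1 gene higher and 2 lower (median 0.14), lipoprotein assembly 2 higher and 1 lower (0.04) and glyceride genes 2 higher and none lower (0.20). Over all single birds left out, the counts higher were 1 to 5, 1 to 4 and 2 to 6. Within batches 1, 2 and 3 the lipid uptake median was 0.125, -0.06 and 0.33. For lipoprotein assembly it was 0.365, 0.055 and 0.095, and for glyceride genes 0.105, 0.205 and 0.105. In the jejunum of the same birds the 3 medians were 0.29, 0.38 and 0.06, and 0.13, 0.21 and 0.05 without control bird 2.

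Genes that make, break or sense lysophospholipids showed no common direction. Of 29 measured, 15 were positive and 14 negative, with a median of 0.02. At an unadjusted p under 0.05, 6 were higher (20.7%) and 3 lower (10.3%), against 6.46% and 8.99% of all genes. PLA2G12B, a secreted phospholipase family member needed for lipoprotein output in mice, had 7.55, 7.96, 7.49, 8.25 and 7.70 in LPC high birds and 6.85, 6.29, 6.55, 6.82 and 6.49 in control birds. The groups did not overlap and the difference was 1.16 ± 0.18 (adjusted p = 0.0935). LPAR5, a receptor for lysophosphatidic acid, had 9.53, 9.88, 10.47, 9.94 and 10.00 in LPC high birds and 9.46, 8.47, 9.04, 9.37 and 9.06 in control birds, again with no overlap, a difference of 0.94 ± 0.19 (adjusted p = 0.126). LPAR5 passed without control bird 1 (adjusted p = 0.049).

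Enzymes that make or consume LPC differed member by member. LPCAT1, an acyltransferase that turns LPC back into phosphatidylcholine, had 4.13, 3.97, 4.27, 4.34 and 4.01 in LPC high birds and 4.49, 4.75, 4.74, 4.69 and 4.81 in control birds, with no overlap and a difference of -0.55 ± 0.10 (adjusted p = 0.111). LPCAT1 was dim, with a mean level of 4.42. PLA2G4A, the cytosolic phospholipase that releases arachidonic acid and leaves a lysophospholipid, was lower, at -0.73 ± 0.15 with no overlap. LPCAT3, the acyltransferase of intestinal lipoprotein lipids in mice, had 10.58, 10.41, 10.07, 10.53 and 10.33 in LPC high birds and 10.56, 10.66, 10.22, 10.93 and 10.37 in control birds, a difference of -0.18 ± 0.15. ABHD12, a lysophospholipase, was at 0.04 ± 0.11 by its brightest probe set and 0.56 ± 0.15 by the other, and PSAP, the precursor of lysosomal saposins, at -0.02 ± 0.14. Other members of the list were higher at an unadjusted p under 0.05, among them PNPLA7, a lysophospholipase, at 0.26 ± 0.09, and GDPD1, a lysophospholipase D, at 0.46 ± 0.19. For LPCAT3, ABHD12 and PSAP the brightest probe sets overlapped between groups.

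The ileal bile acid pathway was described gene by gene. SLC10A2, the transporter that recovers bile acids from the gut, had 11.81, 12.00, 12.38, 11.94 and 12.04 in LPC high birds and 11.62, 11.75, 11.78, 11.23 and 11.44 in control birds, with no overlap and a difference of 0.50 ± 0.14 (adjusted p = 0.208). FABP6, which carries bile acids through the cell, was at 0.07 ± 0.11 and NR1H4, the bile acid receptor FXR, at 0.25 ± 0.14. Of 11 genes of the list 1 was higher and 1 lower at an unadjusted p under 0.05.

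Surface, junction and transporter genes of the epithelium varied member by member. CDHR5, a cadherin that links microvilli, was higher by 0.92 ± 0.16, EZR, which anchors actin to the microvillus membrane, by 0.47 ± 0.11 and ACE, a peptidase of the brush border, by 0.73 ± 0.23, the last 2 with no overlap. The sugar genes SI, sucrase-isomaltase, and SLC5A1, the glucose transporter SGLT1, were at -0.04 ± 0.13 and 0.07 ± 0.14. SLC15A1, the peptide transporter PEPT1, had 12.95, 12.88, 12.90, 12.85 and 12.99 in LPC high birds and 12.76, 12.54, 12.79, 12.62 and 12.54 in control birds, with no overlap and a difference of 0.28 ± 0.09. SLC6A19, a carrier of neutral amino acids, differed by 0.32 ± 0.09, also with no overlap. Of 16 amino acid and peptide transporters 3 were higher (18.8%) and 1 lower.

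Desmosome genes, whose proteins rivet epithelial cells together, led the junction list. PKP2, plakophilin 2, had 10.83, 10.91, 11.09, 10.45 and 10.43 in LPC high birds and 10.36, 10.11, 10.27, 10.62 and 9.31 in control birds, a difference of 0.78 ± 0.12 (adjusted p = 0.0935) with control bird 4 inside the range of LPC high birds. DSG2, desmoglein 2, was higher by 0.85 ± 0.15 and TJP3, a tight junction scaffold, by 0.55 ± 0.12, and of these 2 only TJP3 had no overlap. Of 22 junction genes 6 were higher (27.3%) and 2 lower (9.09%), with a median of 0.11. Among ion and water genes, 5 of 24 were lower (20.8%) and 1 higher, with the bicarbonate carrier SLC4A4 at -0.76 ± 0.13 and the water channel AQP1, also a gene of small vessels, at -0.78 ± 0.15.

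Immune genes outside the interferon list had differences in both directions. JCHAIN was at -1.61 ± 0.61 and IGLL1, annotated as an immunoglobulin light chain gene, at -0.91 ± 0.28. PIGR, which carries antibodies across the epithelium, was at -1.26 ± 0.41. These were the 3 of 10 genes in the B and plasma cell list that were lower (30%) at an unadjusted p under 0.05, although PIGR is a gene of the epithelium. Of the 3, only IGLL1 had no overlap. None of 14 T cell genes reached that level in either direction. CCL20, which attracts lymphocytes and dendritic cells to the mucosa, had 9.97, 9.33, 8.31, 9.46 and 8.03 in LPC high birds and 7.44, 8.01, 7.92, 8.09 and 7.39 in control birds, a difference of 1.30 ± 0.34 with an overlap between LPC high bird 5 and control bird 4. PTGS2, the inducible cyclooxygenase, was lower, at -0.52 ± 0.09 with no overlap, and the chicken interleukin 8 gene IL8L2 was at 0.78 ± 0.49. Inflammatory cytokine genes counted 4 higher (18.2%) and 1 lower (4.55%) of 22. The lists for enteroendocrine cells, enteric neurons, red blood cells and exocrine pancreas had no gene at that level.

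The genes with the largest moderated statistics included others outside these groups. SERPINB6, an intracellular protease inhibitor, had 10.49, 10.99, 10.95, 11.11 and 10.78 in LPC high birds and 9.74, 9.32, 9.77, 9.75 and 10.13 in control birds, a difference of 1.09 ± 0.14. RTCB, the RNA ligase of tRNA splicing, was higher by 1.05 ± 0.14, ORMDL1, a regulator of sphingolipid synthesis, by 0.77 ± 0.11, and PRDX6, a peroxiredoxin that also acts on phospholipids, by 0.93 ± 0.14. TNS1, which ties integrins to actin, was lower, at -1.29 ± 0.17, as was DHRS3, which reduces retinal in the retinoid pathway, at -1.14 ± 0.16. All 6 had an adjusted p of 0.0935, and the groups did not overlap except in DHRS3. MYO15L (1.05 ± 0.16), NGEF (0.73 ± 0.11) and CDHR2 (0.60 ± 0.09) were among the 12 highest. MYCBP2 (-0.77 ± 0.10), DOCK5 (-0.90 ± 0.13), VPS13C (-0.85 ± 0.12), PCNT (-1.11 ± 0.16), MAPK4 (-0.59 ± 0.09) and ARFIP1 (-0.67 ± 0.10) were among the 12 lowest. The groups did not overlap in MYO15L, CDHR2, VPS13C and ARFIP1, and they overlapped or met in the others. Without the batch term MYCBP2 was at -0.68 ± 0.42 (limma, adjusted p = 0.567).

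Probe sets of a gene gave unlike values in some cases. Of the 24 genes with the largest statistics, 20 had further probe sets, 53 in all, of which 44 had the same sign and 25 of those an unadjusted p under 0.05. MUC2, the mucin that goblet cells secrete as gel, had 9.02, 9.39, 9.68, 9.06 and 9.42 in LPC high birds and 8.27, 8.48, 8.99, 8.50 and 7.87 in control birds by the probe set among the 12 highest (1.01 ± 0.15). The other 2 probe sets of MUC2 gave -0.33 and -0.47, so no direction is stated for this gene. FCGBP, another protein of goblet cell mucus, was at 0.76 ± 0.12 and at 0.30 ± 0.07 by its brightest probe set, with 1 of 7 probe sets negative. ARFIP1 had 0.01 by its other probe set. The 4 other probe sets of DOCK5 ran between -0.30 and 0.09, none of them lower at an unadjusted p under 0.05. Its named probe set was dim, with means of 3.29 in LPC high birds and 4.06 in control birds. For PCNT the 4 others ran between -0.53 and 0.16, with 2 negative, and for MYO15L the 2 others between -0.10 and 0.87. Of the 7 others of VPS13C, 6 were negative. The 3 others of TNS1 ran between -0.27 and -0.07, with 1 of them lower at an unadjusted p under 0.05. Those of CDHR2 ran between 0.07 and 0.74.

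The dose and the form of the supplement were compared within the ileum. LPC low birds received 9.5 g/T of LPC and lysolecithin high birds 500 g/T of lysolecithin, the phospholipid mixture from which the LPC had been purified, with the same 19 g/T of LPC. The comparisons of these diets with control share the 5 control arrays, so their values are only set side by side. Lysolecithin low birds received the mixture at a lower level, with 9.5 g/T of LPC. COL1A1 was at -1.82 with LPC high, -1.14 with LPC low, -1.05 with lysolecithin high and -1.21 with lysolecithin low, each minus control. COL3A1 was at -2.13, -1.60, -1.13 and -2.06 in the same order, and the interferon median at 0.89, 0.72, 0.60 and 1.42. The proliferation median was -0.69 with LPC high, -0.14 with LPC low, -0.20 with lysolecithin high and -0.29 with lysolecithin low. For ribosomal proteins the median was -0.38 with LPC high, -0.08 with LPC low, -0.22 with lysolecithin high and -0.51 with lysolecithin low. With lysolecithin low COL1A1 and COL3A1 passed against control (limma, adjusted p = 0.0082 for each; 361 probe sets, or 0.941%, passed), and IFIT5 was at 3.07 (0.0075). Lysolecithin low was not tested against LPC high. Without the birds whose arrays scored for the other segment, named below, COL1A1 was at -0.91 with LPC low and -1.48 with lysolecithin high. COL3A1 was at -1.62 with either diet. For LPC low, leaving them out also took batch 1, with control birds 1 and 2, out of the comparison. The interferon median was then 0.76 with LPC low and 0.68 with lysolecithin high. In the same order the proliferation median was -0.14 and -0.24, and the ribosomal protein median -0.10 and -0.26. With all birds the lipoprotein assembly median was 0.19 with LPC high, 0.44 with LPC low, 0.33 with lysolecithin high and 0.28 with lysolecithin low. Without those birds it was 0.22 with LPC low and 0.12 with lysolecithin high.

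LPC high minus lysolecithin high is the comparison of the purified compound with the mixture at a matched level of LPC. The feeds held unlike amounts of supplement, 1000 g/T of LPC on a carrier against 500 g/T of lysolecithin. Form and amount of supplement, carrier included, cannot be told apart. No probe set passed (limma; 1540, or 4.01%, at an unadjusted p under 0.05; smallest adjusted p = 0.135). COL1A1 differed by -0.76, with a 95% interval between -2.53 and 1.01, MTTP by 0.03 (-0.39 to 0.46), and IFIT5 by 0.92 (-0.35 to 2.18). The intervals of COL1A1 and IFIT5 reach past a 2-fold difference, which these birds could not exclude. MKI67 was lower, at -0.99 (-1.61 to -0.37), an interval not adjusted for the number of genes, with adjusted p = 0.975. The array labelled ileum lysolecithin high replicate 4 scored -1.72 on the segment score, on the jejunum side. Without it no probe set passed either (1261, or 3.29%, at an unadjusted p under 0.05), and COL1A1 was at -0.19 (-1.77 to 1.40), MTTP at 0.21 (-0.10 to 0.52), IFIT5 at 0.75 (-0.63 to 2.13) and MKI67 at -1.05 (-1.74 to -0.36).

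LPC high minus LPC low compares 19 with 9.5 g/T of the same compound. The amount of carrier rose with the dose, so LPC and carrier cannot be told apart here either. No probe set passed with all 5 LPC low birds (limma; 4581, or 11.9%, at an unadjusted p under 0.05; smallest adjusted p = 0.0634). The array labelled ileum LPC low replicate 1 scored -3.35, on the jejunum side, and the jejunum array of LPC low replicate 4 scored 5.78, on the ileum side. The ileum array of replicate 4, the one used in this comparison, scored 4.47, on the side of its label. Replicate 1 was the only LPC low bird of batch 1. With batch as a term, leaving it out also took that batch, with LPC high birds 1 and 2, out of the comparison. Without replicate 1 alone no probe set passed (limma, smallest adjusted p = 0.0845), and without replicate 4 alone 32 did. Without both replicates 5989 probe sets, or 15.6%, had an unadjusted p under 0.05. Among the tested probe sets 408 passed (1.06%), 196 higher and 212 lower, with 3 LPC low birds left and no contrast in batch 1. Those with the smallest adjusted p among genes with a symbol, singled out after their values were seen, were RBM8A, of the exon junction complex, at -1.95 ± 0.14, CDC73, of the Paf1 transcription complex, at 1.72 ± 0.13, ARFIP1 at -1.70 ± 0.13 and CCT3, a subunit of the chaperonin that folds actin and tubulin, at -1.77 ± 0.14 (adjusted p = 0.0101 for each). MUC2 by the probe set given above passed there at 2.63 (adjusted p = 0.0445) and PIGR at -1.32 (0.0414). That MUC2 probe set was at -1.72 in LPC low minus control without both replicates. The other 2 probe sets of MUC2 had the opposite sign in LPC high minus control, so no direction is stated for it here either. Leading genes of the main groups did not, with COL1A1 at -1.17 ± 0.26 (adjusted p = 0.0809), SPARC at -1.14 ± 0.23 (0.0645), MKI67 at -0.42 ± 0.20 (0.354) and IFIT5 at 1.36 ± 0.58 (0.311).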

How the data were processed

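RNA from scraped mucosa was read on Affymetrix chicken genome arrays, whose probes lie near the 3′ end of transcripts. It had an integrity number above 8.7, in part after a second extraction, per the labels. The series table holds log2 signals, 1 for each probe set, which the authors made with RMA (background correction, equal distributions across arrays, summary of probes) per the submitters' processing notes, which also name limma. Versions, batch correction and a genome build are not given in the sources used here. Values ran between 1.84 and 13.99 with near-equal quartiles on the 10 arrays (medians 4.62 to 4.67), were used as given, and show differences only relative to the bulk of the array. Precision is limited by the number of birds.

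Of 38535 probe sets, 153 controls were left out of the tests and none for dim signal. The platform annotation gave 27168 probe sets 1 gene symbol, 177 several and 11037 none, and 26853 could be given current names from a gene table (assembly GRCg7b). LPC high minus control was fitted to the 10 arrays with limma 3.58.1 in R 4.3.3, with diet and batch as terms, 6 residual degrees of freedom and Benjamini-Hochberg adjustment at 0.05. The same fit served the other diets and, on ileum minus jejunum values paired by the bird number in the titles, the segments. The script was tested on simulated data. Within-batch values are differences of means inside a batch. P-values measure the spread between birds, not between pens.

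The arrays follow from the labels alone, but this comparison was taken up, and the 42 gene lists and the tests were chosen, with earlier results of these data known. Named genes are the 12 highest and 12 lowest by moderated statistic among probe sets with 1 symbol, up to 4 members of each list by that statistic, and 24 fixed genes. PNPLA7, GDPD1, RBM8A, CDC73 and CCT3 were named in addition to these. List genes are read by their brightest probe set on average, the others by the one with the lowest p. Alternatives were the batch term, a minimum signal of 5, the prior, array weights, centring, the index as a covariate, other arrays in the fit and each bird left out.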

Additional observations from a re-analysis of the deposited data

Results flagged for a closer look

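Some values stood apart within their group of 5 birds by Dixon's test, 24 of 296 groups examined, and chance alone gives about 1 in 20. Control bird 1 was high in GPX3 (7.87, other control birds 6.78 to 7.02), COL6A3 (8.44, others 6.73 to 7.10), COL6A1 (8.22, others 6.43 to 6.94), SERPINH1 (7.44, others 5.47 to 6.02), CSF1R (7.46, others 5.57 to 5.88), LY86 (6.74, others 4.76 to 5.26) and the mean of the macrophage and dendritic cell list (7.23, others 6.16 to 6.44). Control bird 2 was high in EPHB2 (6.82, others 4.95 to 5.37), CENPF (5.81, others 4.57 to 4.88) and the means of the proliferation list (6.84, others 5.48 to 5.82), the stem cell and crypt list (5.97, others 5.12 to 5.26) and the antioxidant list (9.08, others 8.66 to 8.73), and low in LAMB3 (6.37, others 6.95 to 7.10). Control bird 3 was high in ORMDL1 (7.74, others 7.36 to 7.47). Control bird 5 was low in the 5′ minus 3′ index (-1.005, others -0.72 to -0.69), SLC1A1 (9.34, others 10.29 to 10.48) and DHRS3 (7.70, others 8.86 to 9.16) and high in SLC4A4 (8.16, others 7.26 to 7.51).

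Among LPC high birds, bird 3 was high in LIPA (12.02, others 10.48 to 10.75) and low in SPARC (5.08, others 5.41 to 5.52) and in the mean of the hexose transporter list (8.30, others 9.15 to 9.35). Bird 2 was high in SLC6A19 (13.04, others 12.87 to 12.91), and bird 5 was low in MOGAT2 (9.94, others 10.35 to 10.46) and DSG2 (8.29, others 8.96 to 9.16).

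The LPC high effect differed between ileum and jejunum of the same birds in these named genes, by limma's test of the difference itself with batch as a term. The ileum minus jejunum values were -3.61 for COL3A1, -3.38 for COL6A1 (-2.88 by its lowest-p probe set), -2.87 for COL1A1, -2.78 for COL6A3, -2.72 for COL4A2, -2.54 for COL5A1 (-2.85 by its lowest-p probe set), -3.06 for DCN, -2.84 for SERPINH1, -2.68 for SPARC, -2.42 for LUM and -1.42 for CRTAP. They were -1.83 for CALD1, -1.78 for CDH5, -1.97 for CSF1R, -1.96 for LY86, -2.27 for C1QB and -3.38 for JCHAIN. No call of this test held without the batch term or with the index as a covariate.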

How the results depend on the processing

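The count of probe sets past the threshold for LPC high against control in the ileum was 0 in the fit reported, 1 (SPARC) with a trended robust prior, and 0 to 9 when 1 bird was left out: 9 without control bird 1, 2 without control bird 4 and 2 without control bird 5. It stayed at 0 with batch left out or taken as a random block, at a minimum signal of 5, with array weights, with centring, with the index as a covariate, with the other ileum arrays in the fit and with the bird as a replicate block across both segments. No paired analysis was possible because LPC high and control birds are different birds and share no pairing in the labels. The count for the difference between segments was 186, and 0 with batch left out, with batch taken as a random block or with the index as a covariate, 89 at a minimum signal of 5, 436 with a trended robust prior and 44 to 381 with 1 bird left out. For LPC high against LPC low it was 0, and 1 with batch left out, with batch taken as a random block or with array weights. It was 196 with the index as a covariate and 408 without LPC low replicates 1 and 4, which also took out batch 1. With all ileum arrays but those 2 and lysolecithin high replicate 4 it was 1070. With 1 bird left out it was 0 to 32 (0 without LPC low replicate 1, 32 without LPC low replicate 4). For LPC high against lysolecithin high it was 0, and 1 with batch left out or taken as a random block, and 0 to 1 with 1 bird left out. The index differed by 0.235, by 0.248 with actin alone (exact permutation p = 0.0794, no longer past the threshold), and by 0.176 to 0.255 with 1 bird left out. Among named genes, a sign turned for ABHD12 (0.04 as reported; -0.044 with batch left out, -0.0413 with it as a random block and -0.0351 with all 25 ileum arrays; -0.00333 to 0.11 with 1 bird left out) and for FABP6 (0.07 as reported; -0.16 with the index as a covariate; -0.064 to 0.113 with 1 bird left out). With 1 bird left out it also turned for SI (-0.12 to 0.04), PSAP (-0.15 to 0.14), SLC5A1 (-0.0383 to 0.192) and CDHR2 by its brightest probe set (-0.00167 to 0.212). All other named genes that were followed kept their sign in these alternatives. PNPLA7, GDPD1, HSPD1, HSPE1, RBM8A, CDC73 and CCT3 were not followed. Genes dimmer than 5 on average were not part of the fit at a minimum signal of 5. The cause of these shifts was not tested.

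With 5 birds a side and 6 residual degrees of freedom the comparison called no probe set, so its gene values are estimates with their spread, and a value short of the threshold does not show that the groups were alike. Feed, carrier and pen cannot be told apart. The index of RNA signal separated the groups. The interferon, proliferation, ribosomal protein, respiratory chain and macrophage values moved when single birds were left out. For LPC high bird 3 and control bird 5 that also took out batch 2 or batch 3, so bird and batch cannot be told apart there.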

Other observations

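Lists not described above had small medians, which does not show that the groups were alike. Cholesterol synthesis genes had a median of -0.05, fatty acid oxidation genes -0.09, mitochondrial carriers -0.11 and heat shock genes -0.10. Of the last, HSPD1 and HSPE1, the paired chaperonins of the mitochondrion, were at -0.74 and -0.59, and 2 of 13 were lower at an unadjusted p under 0.05 (15.4%). Antioxidant genes had a median of -0.15, with 22 of 28 negative, and 5 lower (17.9%) and 1 higher (3.57%) at that level. GPX3, a secreted glutathione peroxidase, had 6.08, 6.55, 5.99, 6.43 and 6.57 in LPC high birds and 7.87, 6.99, 6.78, 6.81 and 7.02 in control birds, a difference of -0.86 ± 0.18 with no overlap. Among genes of drug and fatty acid hydroxylation, CYP4V2, a fatty acid hydroxylase, was at 0.93 ± 0.37, and 0.07 with the index as a covariate. Its control bird 5 was lowest at 8.15. SLC25A22, a mitochondrial glutamate carrier, was at 0.23 ± 0.16, and AVD, which encodes avidin, at 0.27 ± 0.26.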
